A study of Mus musculus with 4 samples.

Results

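The genes described are 10 regulators of the hair germ, the matrix and the hair shaft lineages, namely Cdh3, Lef1, Msx1, Msx2, Dlx3, Foxn1, Ovol1, Sox21, Gata3 and Runx3. They were chosen by name, and each symbol matched 1 row, so that 10 of the 55401 genes in the deposited table are covered. RNA-seq had been done on stem cells of the hair follicle in anagen, when hairs grow, from C57BL/6 mice kept on a normal diet (2 libraries) or for 4 months on a high-fat diet (2 libraries). The labels list no genotype, age, sex or sorting gate, and they name no animal for any library, so a p-value here measures only the spread between libraries. Total counts lay between 8590570 and 9940848 per library, and all 10 genes exceeded the filter on low counts in each of the 4 libraries. Mitochondrial reads made up 12.1% and 11.9% of the totals on the normal diet and 15.1% and 15.8% on the high-fat diet.

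During anagen the stem cells of the bulge and of the hair germ below it feed the matrix, a pool of dividing progenitors around the dermal papilla. Matrix cells receive Wnt and bone morphogenetic protein signals, leave the cell cycle and form the concentric layers of the hair shaft and of the inner root sheath. The regulators fall along this path. The cadherin gene Cdh3 marks the hair germ and matrix, and Lef1 turns Wnt signals into transcription. The homeobox genes Msx1, Msx2 and Dlx3 act in the matrix and precortex, Foxn1, Ovol1 and Sox21 act in differentiating shaft cells, and Gata3 acts in the inner root sheath. Runx3 encodes a Runt-domain transcription factor present in skin and in lymphocytes.

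The labelled cell type was checked against its markers. Krt15, the keratin of bulge cells, had between 20547 and 26006 counts per library, and Sox9, a bulge transcription factor, between 6051 and 8729. The structural genes of mature shafts were nearly absent. Of 17 hair shaft genes measured, 8 had 0 counts in all 4 libraries, among them the hair keratin Krt86 and the desmosomal cadherin Dsg4, and 1 passed the filter, the cuticle keratin Krt32, with 1 and 7 counts on the normal diet and 35 and 16 on the high-fat diet. Of 10 inner root sheath genes 5 passed the filter, and Tchh, the trichohyalin gene, was the most abundant with 74 and 69 counts against 81 and 120. Not all bulge markers were abundant, with Cd34 between 543 and 835 counts and Fgf18 at 8 or fewer. Transcripts of other states were abundant too, with Krt10 of the suprabasal epidermis between 5646 and 19792 counts. The cell cycle gene Mki67 had between 10170 and 19962. The 10 regulators were therefore measured in libraries with bulge, suprabasal and cell cycle transcripts and with few transcripts of finished shaft or sheath. The purity of the cells was not tested.

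Only Cdh3 and Gata3 were abundant. In FPKM (fragments per kilobase of exonic length, scaled to the library total, which allows genes to be compared), Cdh3 stood at 50.9 and 52.6 on the normal diet and 48.8 and 48.1 on the high-fat diet, and exceeded 95.3% of the 14479 genes tested in mean level. Gata3 stood at 30.1 and 40.6 FPKM against 43.8 and 49.5 FPKM, so that the ranges of Cdh3 and Gata3 overlapped. Sox21 came next with 2.25 and 4.78 FPKM against 8.92 and 11.03 FPKM. Dlx3, Ovol1, Msx2 and Foxn1 had means over the 4 libraries of 3.45, 2.86, 2.48 and 1.61 FPKM, and their ranges overlapped one another. Msx1, Lef1 and Runx3 had means of 0.723, 0.713 and 0.515 FPKM, also with overlapping ranges.

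**Figure D1:**
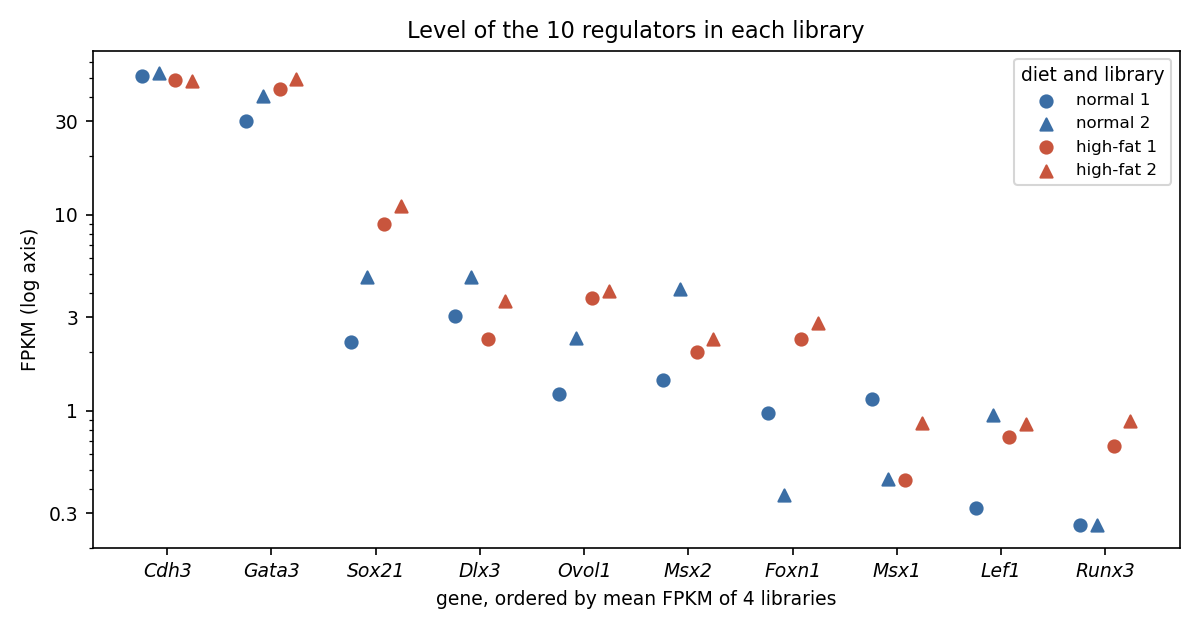
FPKM on a log axis for each of the 10 genes in each library, with circles and triangles for library 1 and 2 of a diet and blue and red for the normal and high-fat diets. Cdh3 and Gata3 lie between 30.1 and 52.6 FPKM, and the red points lie above both blue points for Gata3, Sox21, Ovol1, Foxn1 and Runx3. For Cdh3 both red points lie below both blue points.

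The comparison of the diets asks which of these regulators differed in the stem cells after the high-fat diet. Of the 10 genes 1 was higher and 0 were lower at an adjusted p under 0.05 (edgeR quasi-likelihood test, adjusted over all genes tested), while 1.12% of all genes tested were called higher and 0.228% lower. The gene called was Sox21, by edgeR and by DESeq2. A further 4 genes, Foxn1, Ovol1, Gata3 and Runx3, did not pass but had an unadjusted p under 0.05 with higher values on the high-fat diet, and with Sox21 this made 5 of 10, against 7.24% of all genes tested. In the other direction there were 0 of 10, against 6.03%. A log2 fold change over 1 was found for 4 of the 10, Foxn1, Runx3, Sox21 and Ovol1, and for 6.24% of all genes tested. In CPM (counts scaled to a fixed, TMM-adjusted library size) the same 5 genes had no overlap between the diets. Both high-fat libraries lay above both normal diet libraries, a pattern found in 22.7% of all genes tested. The opposite separation in CPM was found for 0 of the 10 and for 21.9% of all genes tested. The median log2 fold change was 0.44 over the 10 genes and 0.00 over all genes tested. In such bulk samples more cells of a kind and more RNA per cell cannot be told apart.

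**Figure D2:**
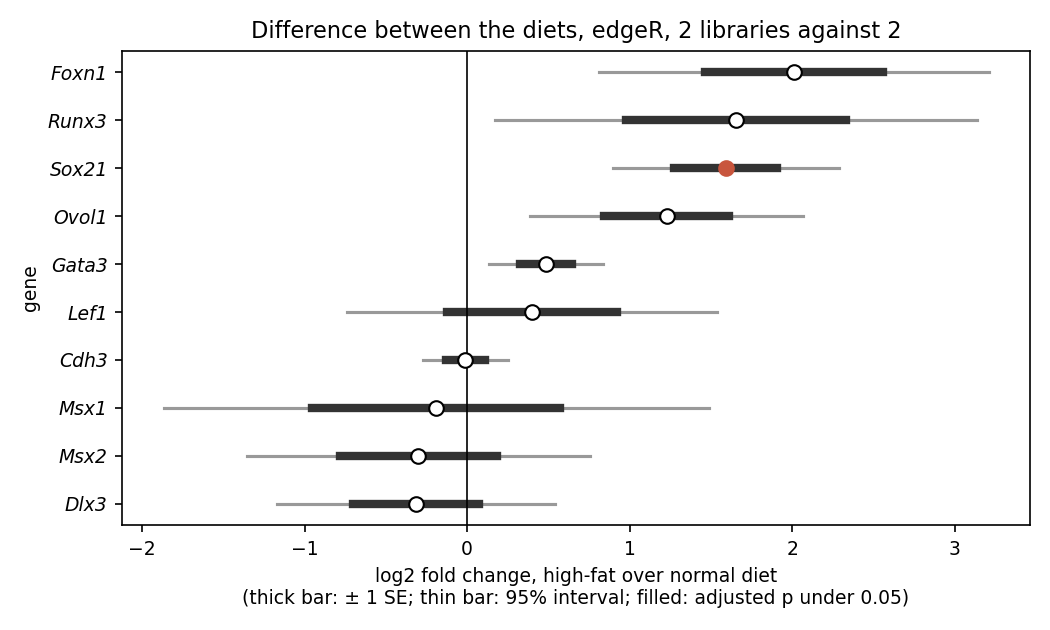
Log2 fold change of each gene, high-fat over normal diet, with ± 1 SE as a thick bar and the 95% interval as a thin bar, from 2 libraries against 2. The interval lies above 0 for Foxn1, Runx3, Sox21, Ovol1 and Gata3, and the filled point, Sox21, is the gene with an adjusted p under 0.05.

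The normal diet pair lay further apart than the high-fat pair for 9 of the 10 genes, Runx3 being the exception. Within the normal diet 5 of the 10 genes, Lef1, Msx2, Foxn1, Msx1 and Sox21, were more than 2-fold apart in CPM, as were 13.4% of all genes tested. Within the high-fat diet 0 of the 10 were, against 9.88% of all genes tested. The direction of the gap was not shared. Lef1, Msx2 and Sox21 were higher in the second normal diet library, and Foxn1 and Msx1 in the first. The plot of fold changes with each library left out shows how far each value depends on this pair.

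**Figure D3:**
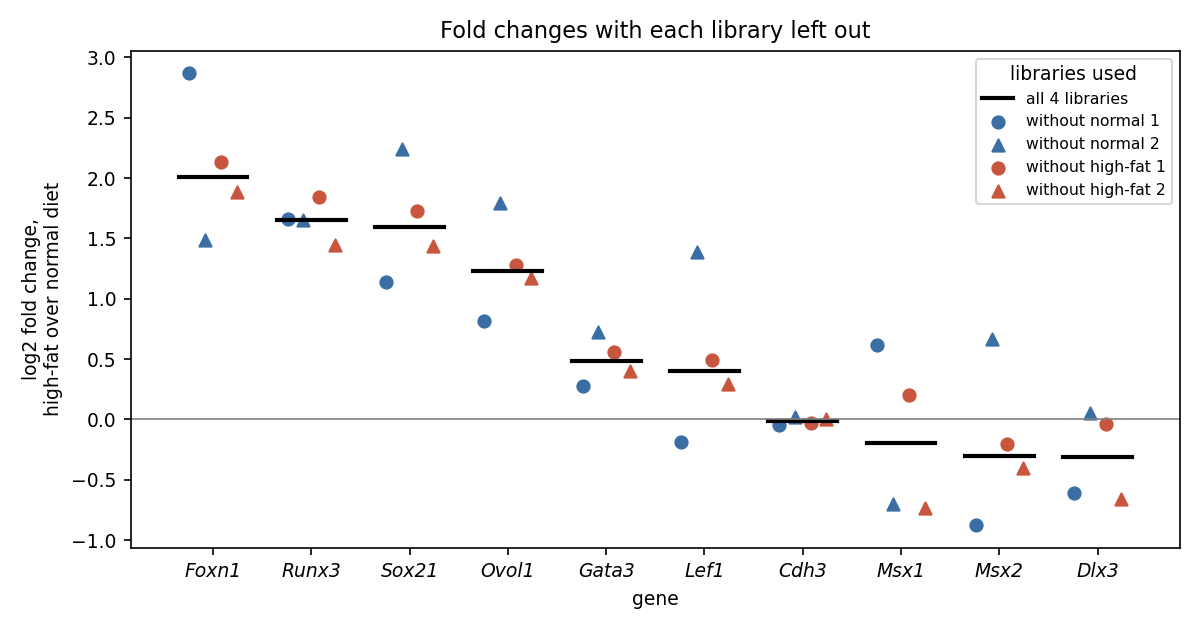
Log2 fold change of each gene in all 4 libraries (black line) and with each library left out in turn (points). The points of Foxn1, Runx3, Sox21, Ovol1 and Gata3 lie above 0 throughout, whereas those of Lef1, Cdh3, Msx1, Msx2 and Dlx3 lie on both sides of 0.

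Cdh3 encodes P-cadherin, the classical cadherin that distinguishes the hair germ and matrix from the bulge (chromosome 8, positions 106510891 to 106557297, plus strand, build GRCm38). It had 2219 and 2162 counts on the normal diet and 1867 and 1810 on the high-fat diet, or 215 and 226 CPM against 222 and 216 CPM. In CPM the libraries lay within a narrow range and the diets overlapped. In FPKM both high-fat libraries lay below both normal diet libraries, at 48.8 and 48.1 against 50.9 and 52.6. The log2 fold change was -0.01 ± 0.12 (SE; 95% interval -0.27 to 0.25; edgeR adjusted p = 0.986), so that a change in CPM of more than 1.19-fold upwards lies outside the interval. Cdh1, which encodes E-cadherin, the cadherin of all keratinocytes, had 714 ± 24.6 CPM and 812 ± 7.60 CPM (SD, n = 2 per diet) and did not pass (log2 fold change 0.19 ± 0.11, SE; edgeR adjusted p = 0.515). Per length, Cdh3 made up 24.4% of the sum of both cadherins in each normal diet library, against 22.1% and 21.8% after the high-fat diet.

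Lef1, a Wnt-responsive member of the LEF/TCF factors that bind beta-catenin (chromosome 3, positions 131110471 to 131224356, plus strand), had few reads. Its counts were 28 and 78 on the normal diet and 56 and 64 on the high-fat diet, with exact Poisson 95% intervals, which cover counting error only, of 18.6 to 40.5 and 61.7 to 97.3 for the normal diet pair. Those intervals did not overlap, and both high-fat counts lay between the normal diet counts. The log2 fold change was 0.40 ± 0.52 (SE; edgeR adjusted p = 0.811), and it ranged from -0.19 without the first normal diet library to 1.39 without the second. Lef1 supplied between 0.621% and 2.03% of the summed FPKM of the 4 LEF/TCF genes. The remainder came from Tcf7, Tcf7l1 and Tcf7l2. Tcf7l1, known as a repressor that keeps bulge cells quiescent, and Tcf7l2 did not pass, with log2 fold changes of 0.21 ± 0.19 and -0.11 ± 0.13 (SE; edgeR adjusted p = 0.687 and 0.787).

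Genes of Wnt feedback, which are themselves induced by beta-catenin in many tissues, were read beside Lef1. Of 10 listed 7 were tested, and 1 was called higher and 0 lower, against 1.12% and 0.228% of all genes tested. The gene called was Apcdd1, a membrane-bound Wnt inhibitor expressed in follicles, which stood at 18.9 and 25.8 CPM on the normal diet and rose to 52.6 and 55.0 CPM, a log2 fold change of 1.27 ± 0.21 (SE; edgeR adjusted p = 0.016). Its log2 fold change was 1.06 without the first normal diet library, 1.51 without the second and 1.24 without the second high-fat library. The call was lost in these fits, but each leaves 1 library in a diet and calls fewer genes of any kind. Axin2, a standard readout of Wnt signalling, had 30.5 and 33.6 CPM against 50.3 and 53.2 CPM, without overlap, and did not pass (edgeR adjusted p = 0.093). Rnf43, which removes Wnt receptors, and Nkd2 also missed the threshold (log2 fold changes 0.46 ± 0.20 and 2.09 ± 0.79, SE; edgeR adjusted p = 0.339 and 0.271). Of the 7 log2 fold changes 5 were positive and 2 negative, the latter for Nkd1 (-0.81 ± 0.59, SE; edgeR adjusted p = 0.617) and Bambi (-0.28 ± 0.48, SE; edgeR adjusted p = 0.873). The list's median log2 fold change was 0.46, against 0.00 over all genes tested.

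The homeobox genes did not pass in either direction. Msx2, needed for shaft differentiation upstream of Foxn1 (chromosome 13, positions 53466884 to 53473074, minus strand), had 47 and 128 counts on the normal diet and 57 and 65 on the high-fat diet. In CPM this was 4.55 and 13.4 against 6.76 and 7.75, so the high-fat values lay between the normal diet values. Its log2 fold change was -0.30 ± 0.48 (SE; edgeR adjusted p = 0.858), -0.88 when the first normal diet library was left out and 0.67 when the second was. Msx1, its close relative (chromosome 5, positions 37820485 to 37824583, minus strand), had 35 and 13 counts against 12 and 23, overlapping, and a log2 fold change of -0.19 ± 0.77 (SE; edgeR adjusted p = 0.955). The 95% interval of that change, from -1.87 to 1.49, is the widest of the 10, and it does not show that the diets were alike. The normal diet libraries were high in opposite members, with Msx1 supplying 44.2% of the Msx FPKM in the first and 9.74% in the second. Msx3 had 0 counts.

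Dlx3, a regulator of matrix and shaft differentiation and of the suprabasal epidermis (chromosome 11, positions 95120119 to 95125296, plus strand), had 79 and 117 counts on the normal diet and 53 and 81 on the high-fat diet. Its CPM were 7.65 and 12.2 against 6.29 and 9.66, which overlapped, and the log2 fold change was -0.31 ± 0.39 (SE; edgeR adjusted p = 0.797). Of its relatives Dlx1, Dlx2 and Dlx5 were tested and did not pass with edgeR, although Dlx5 passed with DESeq2 and without the filter on low counts. Dlx5 had 8 and 11 counts against 41 and 49 (log2 fold change 2.46 ± 0.66, SE; edgeR adjusted p = 0.109), and Dlx1 had 55 and 20 against 5 and 10 (-2.04 ± 0.80, SE; adjusted p = 0.291). Dlx5 stood at 3.98% and 6.61% of the summed Dlx FPKM on the normal diet and at 31.4% and 27.9% on the high-fat diet. Dlx3 stood at 33.7% and 60.9% and at 35.4% and 40.1%.

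**Figure D4:**
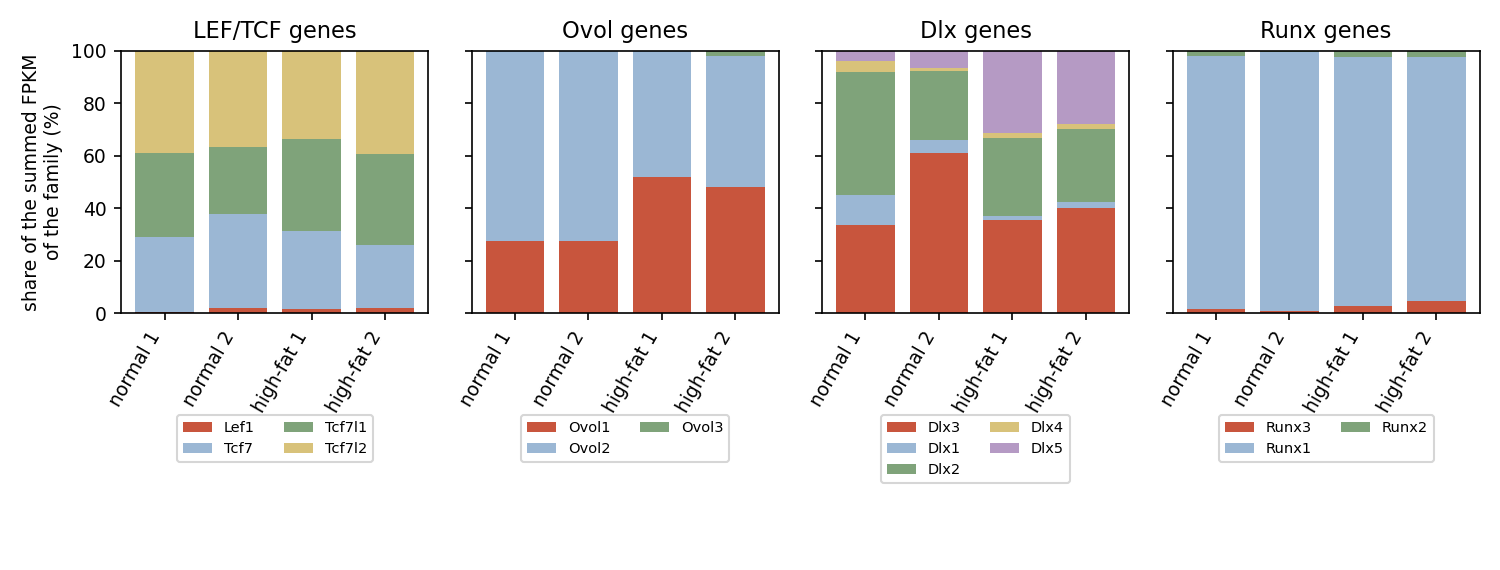
Share of the summed FPKM of each gene family in each library, in percent, with the regulator of interest in red at the base of each bar. The red Ovol1 segment is 27.5% in both normal diet libraries, with 52.1% and 47.9% after the high-fat diet, whereas Lef1 and Runx3 stay under 5% of their families.

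The shaft regulators held the one gene that passed. Sox21, a transcription factor of the shaft cuticle whose loss in mice causes cyclic hair loss, is a gene with exonic size 3799 bases (chromosome 14, positions 118233232 to 118237030, minus strand). It had 85 and 170 counts on the normal diet and 296 and 360 on the high-fat diet. In CPM these were 8.23 and 17.7 against 35.1 and 42.9, so both high-fat libraries exceeded both normal diet libraries, and the mean rose from 13.0 ± 6.73 to 39.0 ± 5.52 CPM (SD, n = 2). The fitted change was 1.59 ± 0.32 on the log2 scale (SE), or 3.01-fold (95% interval 1.86-fold to 4.88-fold; edgeR adjusted p = 0.036). The size depended on the normal diet pair, with 1.139 without the first of these libraries and 2.24 without the second. Without the second high-fat library it was 1.44. The call was lost in these fits, but each leaves 1 library in a diet and calls fewer genes of any kind. It was also lost with limma on log2(FPKM + 1) (adjusted p = 0.184), which called 2 genes in all. Gm4675, a noncoding gene on the opposite strand that overlaps Sox21, had 16, 3, 1 and 7 counts, and strand handling is not given in the sources used here.

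Foxn1, the winged-helix factor lost in nude mice and required for hair keratin expression (chromosome 11, positions 78357577 to 78386558, minus strand), had 31 and 11 counts on the normal diet and 65 and 77 on the high-fat diet. Its CPM were 3.003 and 1.148 against 7.71 and 9.18, with no overlap. The log2 fold change of 2.01 ± 0.55 (SE), or 4.03-fold (95% interval 1.76-fold to 9.24-fold), was the highest of the 10 and did not pass (edgeR adjusted p = 0.117). Leaving out the first normal diet library gave 2.87 and leaving out the second gave 1.49. With the replicate number as a term Foxn1 and Sox21 passed, 2 of the 10 genes against 2.13% of all genes called higher in that fit (adjusted p = 0.036 for Foxn1). Without the filter on low counts Foxn1, Gata3, Ovol1 and Sox21 passed, 4 of the 10 against 1.65% called higher (adjusted p = 0.00893 for Foxn1). For Foxn1 the adjusted p over all alternatives lay between 0.00893 and 0.488. The relatives Foxn2 and Foxn3 were more abundant per length, and Foxn1 made up 6.56% and 2.25% of the summed Foxn FPKM on the normal diet and 12.0% and 12.8% on the high-fat diet.

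Ovol1, a zinc-finger repressor that promotes exit from the cell cycle in differentiating follicle and epidermal cells (chromosome 19, positions 5549136 to 5560646, minus strand), had 42 and 77 counts against 115 and 123. Its CPM were 4.07 and 8.04 on the normal diet and 13.6 and 14.7 on the high-fat diet, again with no overlap. A log2 fold change of 1.23 ± 0.38 (SE) did not pass (edgeR adjusted p = 0.184), with 0.82 in the absence of the first normal diet library and 1.79 in that of the second. Ovol2, which is known to keep epithelial cells from mesenchymal conversion, had 6.49 and 12.8 CPM against 7.59 and 9.30 CPM and did not pass (edgeR adjusted p = 0.901). Ovol1 thus supplied 27.5% of the Ovol FPKM in each normal diet library, and 52.1% and 47.9% after the high-fat diet. That share was equal in the normal diet libraries although the level of Ovol1 itself was not. The opposite-strand features Gm31166 and 1810058N15Rik, which overlap Ovol1, had at most 17 counts in a library.

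Gata3, the zinc-finger factor that specifies the inner root sheath and is also present in epidermis and lymphocytes (chromosome 2, positions 9857078 to 9890034, minus strand), had the second highest level of the 10. It had 1191 and 1512 counts on the normal diet and 1522 and 1690 on the high-fat diet, or 115 and 158 CPM against 181 and 202 CPM. The diets did not overlap, but the gap between the second normal diet library and the first high-fat library was smaller than the gap within the normal diet. The log2 fold change of 0.48 ± 0.16 (SE; 95% interval 0.14 to 0.83) did not pass (edgeR adjusted p = 0.205), and was 0.28 once the first normal diet library was left out and 0.73 once the second was. Gata3 supplied between 96.2% and 98.8% of the summed Gata FPKM. The other member of the family that was tested, Gata6, a marker of the upper follicle, rose from 3.29 and 2.92 CPM to 10.7 and 12.9 CPM (log2 fold change 1.92 ± 0.40, SE; edgeR adjusted p = 0.041). Its call was lost with TPM scaling (adjusted p = 0.071) and with library totals alone (adjusted p = 0.051). The call was also lost with each of the 4 libraries left out, where fewer genes of any kind are called. The log2 fold change of Gata6 there lay between 1.78 and 2.05.

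Runx3 (chromosome 4, positions 135120652 to 135177990, plus strand) had the lowest level of the 10, with 13 and 12 counts on the normal diet and 29 and 38 on the high-fat diet. The normal diet libraries were nearly equal at 1.26 and 1.25 CPM, and the high-fat libraries stood above them at 3.44 and 4.53 CPM. Its log2 fold change was 1.66 ± 0.68 (SE; 95% interval 0.17 to 3.14; edgeR adjusted p = 0.314). It lay between 1.44 and 1.84 with any library left out, the narrowest such range among the 4 genes with a log2 fold change over 1. On the log2(FPKM + 1) scale, which understates changes of low genes, limma gave 0.49 for Runx3 and 1.11 for Foxn1. Runx1, the Runt factor known to act in follicle stem cells at the onset of anagen, was the main member of the family, with 238 ± 95.4 and 241 ± 42.3 CPM (SD, n = 2) and a log2 fold change of 0.02 ± 0.22 (SE). Cbfb, the shared DNA-binding partner, had one of -0.15 ± 0.14 (SE). Neither passed (edgeR adjusted p = 0.985 and 0.715).

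Promoter sequence from RefSeq (GRCm38.p6) was held for 7 of the 10 genes. The 250 bases before the start are shown for 3 of the 4 genes with log2 fold changes over 1, as the members with the largest fold changes, and the fourth, Ovol1, had no entry. A search on both strands covered motifs of the factors in the set, namely CTTTGAT with its variant CTTTGTT for LEF/TCF, ACAATGG for SOX, TAATTG for homeobox factors, AGATAA for the GATA factors, ACCACA for RUNX and GACGC for FOXN1, together with the CCAAT box and with TATAAA, the TATA box. Capitals mark each match, and each sequence is read 5′ to 3′ on the gene's strand. The Sox21 sequence is chr14:118237031-118237280 (minus strand), which also holds exonic sequence of Gm4675. Foxn1 is chr11:78386609-78386858 (minus strand), and Runx3 is its upstream start at chr4:135120395-135120644 (plus strand). That Runx3 stretch also overlaps annotated exonic sequence.
Sox21: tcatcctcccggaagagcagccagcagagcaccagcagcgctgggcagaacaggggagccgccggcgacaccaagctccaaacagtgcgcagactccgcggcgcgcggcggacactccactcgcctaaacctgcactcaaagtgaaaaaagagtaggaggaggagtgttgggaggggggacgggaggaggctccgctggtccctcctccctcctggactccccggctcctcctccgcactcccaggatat
Foxn1: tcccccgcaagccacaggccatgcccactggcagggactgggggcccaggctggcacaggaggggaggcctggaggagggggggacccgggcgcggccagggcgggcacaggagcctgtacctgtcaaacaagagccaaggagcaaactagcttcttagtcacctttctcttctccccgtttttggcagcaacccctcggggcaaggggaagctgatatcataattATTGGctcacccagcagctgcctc
Runx3: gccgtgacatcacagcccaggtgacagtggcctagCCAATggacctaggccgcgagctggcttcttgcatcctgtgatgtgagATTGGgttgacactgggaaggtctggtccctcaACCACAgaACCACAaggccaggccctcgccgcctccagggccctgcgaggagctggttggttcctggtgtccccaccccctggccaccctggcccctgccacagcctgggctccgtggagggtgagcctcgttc
The Sox21 sequence held 0 matches to these letters. Foxn1 held 1 CCAAT box, 24 bases before the start and on the opposite strand, a box found in 33.8% of 32536 mouse promoters of the same length. Runx3 held a pair of ACCACA motifs that begin 134 and 126 bases before the start, and 14.0% of promoters hold at least 1. It also held a pair of CCAAT boxes. The other Runx3 start, at chr4:135152295-135152544 and not shown, held 0 ACCACA motifs, 3 GACGC motifs and 1 CCAAT box. At least 1 GACGC is held by 22.7% of promoters. The GC content of the sequences shown was 65.2% for Sox21 and Runx3 and 63.2% for Foxn1, against a median of 52.4% over all promoters. A match to letters is no evidence of binding.

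Other regulators of matrix and shaft were read as a list of 19, of which 18 passed the filter. By edgeR 1 was called higher and 1 lower, against 1.12% and 0.228% of all genes tested. Foxq1, a forkhead gene of the hair medulla, rose from 6.97 and 5.22 CPM to 17.3 and 16.9 CPM (log2 fold change 1.49 ± 0.32, SE; edgeR adjusted p = 0.048). Prdm1, which encodes the repressor Blimp1, fell from 60.8 and 46.4 CPM to 25.5 and 29.5 CPM (-0.96 ± 0.20, SE; edgeR adjusted p = 0.041). Both edgeR calls were lost with TPM scaling (adjusted p = 0.101 and 0.1002). That of Foxq1 was also lost with library totals alone (adjusted p = 0.058). A filter of CPM at least 1 in 2 libraries lost it too (adjusted p = 0.055). With any of the 4 libraries left out both calls were lost, but fewer genes of any kind are called there. The log2 fold changes then lay between 1.29 and 1.72 for Foxq1 and between -1.15 and -0.75 for Prdm1. Satb1, a chromatin organiser, and Bmp2, a ligand of matrix differentiation, had no overlap and did not pass (log2 fold changes 1.54 ± 0.33 and 1.57 ± 0.43, SE; edgeR adjusted p = 0.051 and 0.115). Both passed without the filter on low counts and with the replicate number as a term, and Satb1 also passed with DESeq2. Hoxc13, a direct regulator of hair keratins, stood at 27.3 and 25.9 CPM against 23.0 and 24.1 CPM (edgeR adjusted p = 0.792). Shh, the ligand made by matrix cells, had 2 counts in the first high-fat library and 0 in the others. Over the 18 genes the median log2 fold change was 0.18.

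Markers of other cells were read beside the 10 genes, several of which are also expressed in such cells. Summed over 8 suprabasal epidermal genes, where Ovol1, Dlx3 and Gata3 also act, expression was 1214 and 2873 CPM on the normal diet and 3965 and 4925 CPM on the high-fat diet, with 3 genes called higher by edgeR (Krt10, Krtdap and Dsg1a) and 1 lower (Flg). DESeq2 did not call Krt10 (adjusted p = 0.275) or Flg (adjusted p = 0.219), and without either normal diet library 0 of these 4 were called (adjusted p between 0.139 and 0.464). The list's calls numbered 2 without the first high-fat library, 2 with a CPM of at least 1 required in 2 libraries and 7 without a filter. In the sum each high-fat library was above each normal diet library, and the first normal diet library was the lowest. The sum is weighted to abundant genes such as Krt10, at 547 and 1155 CPM against 1800 and 2361 CPM. Flg ran the other way, at 55.0 and 206 CPM against 20.1 and 34.1 CPM. Likeness of single regulators to the sum was not tested, since 4 libraries give no usable measure of it. Summed over 10 lymphoid and myeloid genes, a source of Gata3, Runx3 and Lef1 in skin, expression was 23.9 and 51.9 CPM against 61.6 and 74.3 CPM. By edgeR 0 of 8 tested genes were called. At an unadjusted p under 0.05, 2 were higher, Cd74 and Csf1r, against 7.24% of all genes tested. Levels in this list were low. Trdc, the delta chain gene of the T cell receptor, was not among those 2 and had 0 and 16 counts against 24 and 47. Summed over 10 dermal papilla and fibroblast genes, where Msx1, Msx2 and Lef1 are also expressed, expression was 50.3 and 57.9 CPM against 82.1 and 68.3 CPM. By edgeR 0 of 7 tested genes were called. At an unadjusted p under 0.05, 2 were higher, Col3a1 and Dcn, against the same 7.24%. The papilla marker Corin had 0 counts in all 4 libraries. Melanocyte markers summed to 56.0 and 29.9 CPM against 42.0 and 31.0 CPM, and endothelial markers to 10.5 and 12.1 CPM against 17.8 and 21.0 CPM, with 0 genes called by edgeR and 0 at an unadjusted p under 0.05 in both lists. The part of these cells in the values of the 10 genes was not tested.

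**Figure D5:**
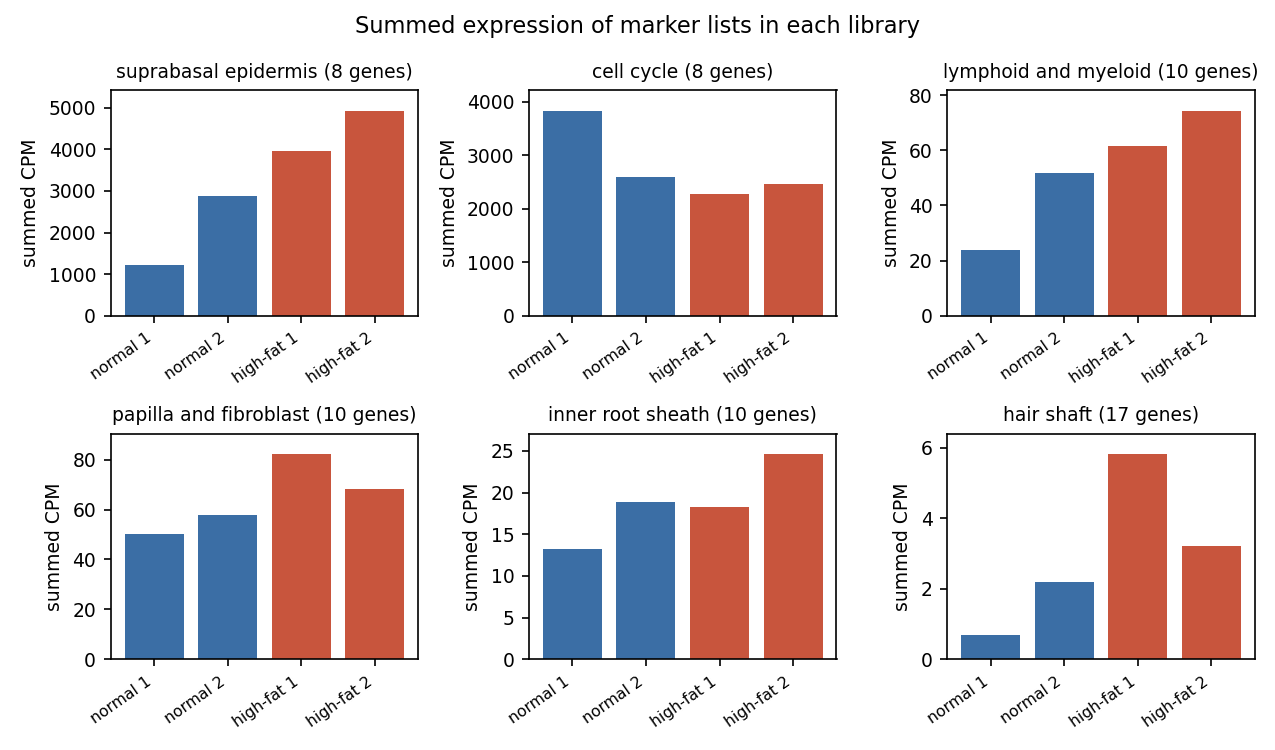
Summed CPM of 6 marker lists in each library, each panel with its own axis from 0, in blue for the normal and red for the high-fat diet. Suprabasal genes reach 3965 and 4925 CPM on the high-fat diet, while hair shaft genes stay between 0.678 and 5.81 CPM in all libraries.

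Markers of dividing cells were lower in sum on the high-fat diet, and the first normal diet library had the highest sum. Without that library the median log2 fold change of the 8 genes was -0.30 with 1 positive, against -0.55 with all 4 libraries. The 8 cell cycle genes summed to 3827 and 2592 CPM on the normal diet and 2276 and 2469 CPM on the high-fat diet, with Cdc20 lower (log2 fold change -0.81 ± 0.16, SE; edgeR adjusted p = 0.033) and 8 of 8 log2 fold changes negative. Over all genes tested 0.228% were called lower. Mki67, the most abundant of the 8, overlapped between the diets, at 1934 and 1210 CPM against 1207 and 1357 CPM. The Cdc20 call was lost with TPM scaling (adjusted p = 0.092). It was also lost with each of the 4 libraries left out, where fewer genes of any kind are called. The log2 fold change of Cdc20 there lay between -0.95 and -0.66. Bulge markers had 0 of 8 tested genes called by edgeR, while 4 had an unadjusted p under 0.05. Of these, Krt15 and Col17a1 were higher on the high-fat diet (log2 fold changes 0.34 and 0.46), against 7.24% of all genes tested. Lhx2 and Nfatc1 were lower (-0.49 and -0.27), against 6.03% of all genes tested. DESeq2 called Col17a1 and Lhx2. The median over the bulge list was -0.16. Upper follicle markers had 4 of 7 called higher by edgeR, namely Krt79, Cst6, Defb6 and Gata6, against 1.12% of all genes tested. Their summed CPM overlapped between the diets. The number called was 1 with TPM scaling and 2 with library totals alone. With any library left out fewer of the list were called, as over all genes. The list's median log2 fold change then lay between 0.51 and 0.79.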

How the data were processed

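The authors deposited 1 table of counts and FPKM values per gene. The tools listed in the submitters' processing notes include HISAT2 2.0.1 and cutadapt 1.9.1. Which program counted the reads, and on which build or strand, is not given in the sources used here. Deposited FPKM equalled count over exonic size and total count within 0.0051. Those totals include mitochondrial reads, a larger part on the high-fat diet, which limits comparisons of the diets in FPKM. With library totals alone the median log2 fold change over all genes tested was -0.085. Of 55141 identifiers shared with a GENCODE annotation of GRCm38, 99.4% had identical coordinates, and that build is named with positions.

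Counts were tested with edgeR 4.0.16 in R 4.3.3 (quasi-likelihood test, TMM, default filter by group), 2 libraries against 2, over 14479 genes, with Benjamini-Hochberg adjustment. The SE is the log2 fold change over the square root of F, and its 95% interval uses the test's degrees of freedom. Alternatives used DESeq2 1.42.0 and limma 3.58.1, and the fit was tested on simulated data. At this depth 3 counts equal between 0.291 and 0.358 CPM, and intervals on counts cover counting error only. The 10 genes and 13 companion lists were chosen with earlier results of these data known. Named genes were all 10, genes called in a list, up to 3 others per list with the smallest p, and 6 relatives fixed by name. Dlx1, Dlx5, Foxn2, Foxn3, Hoxc13, Shh, Sox9, Krt15, Krt32, Tchh and further genes named for their level were added after their values were seen.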

Additional observations from a re-analysis of the deposited data

How the results depend on the processing

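The number of genes called was 195 in all 4 libraries (83.1% higher), and the number among the 10 regulators was 1. Without a low-count filter 633 genes, 4 regulators (Foxn1, Gata3, Ovol1 and Sox21) and 25 companion genes (12 otherwise) were called. TPM scaling gave 91 genes (96.7% higher) and 5 companion genes, and library totals alone gave 67.0% higher. DESeq2 called 394 genes and a threshold of 0.1 called 381. Limma on log2(FPKM + 1) or + 0.1 called 2 genes, 0 regulators and 0 companion genes, with 4 regulators at an unadjusted p under 0.05 either way. Leaving out a library in turn gave 0 to 83 genes, 0 to 1 regulators and 0 to 5 companion genes with edgeR, with 3 to 5 regulators at an unadjusted p under 0.05. The lone library is then assumed to vary like the other diet's pair. Fewer genes of any kind pass in such fits, so a call lost there is not particular to a gene. The labels give both diets replicate numbers without saying that these pair the libraries, and deviations of equal numbers were uncorrelated (r = -0.0046, across genes). With a replicate block, 419 genes, 2 regulators (Foxn1 and Sox21) and 19 companion genes were called. Of 140 alternative fold changes of the regulators 124 kept direction and side of the threshold, 5 lost a call (all Sox21), 4 gained one, and 7 reversed, each with a library left out. Those 7 fell in ranges of -0.042 to 0.023 for Cdh3, -0.66 to 0.056 for Dlx3, -0.88 to 0.67 for Msx2, -0.73 to 0.62 for Msx1 and -0.19 to 1.39 for Lef1. The causes were not tested. Counts under 100 in every library limit Msx1, Lef1, Foxn1 and Runx3. Dlx3, Msx2, Ovol1 and Sox21 also had counts under 100 in some libraries. On the normal diet these were 42 and 77 for Ovol1, and 85 in the first library for Sox21.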
